A study of Mus musculus with 24 samples.

Results

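The BATF, JUN and FOS transcription factors were followed as 10 genes, Batf, Batf2, Batf3, Jun, Junb, Jund, Fos, Fosb, Fosl1 and Fosl2, chosen by symbol. All 10 were found among the 23420 gene symbols counted in each library. Polyadenylated RNA had been sequenced from 24 libraries of C57BL/6 mouse cells in 10 groups, to compare cells lacking the DNA glycosylase TDG or the 3 TET dioxygenases with control cells. Th2 cells were the progeny of naive CD4+ T cells of spleen and lymph nodes, activated through CD3 and CD28 for 2 days with IL-4 and anti-IFN-γ and then grown in IL-2 for 3 days (4 WT and 4 TDG iKO libraries). Bone marrow-derived macrophages (BMDM) were grown with M-CSF and left unstimulated (0 h) or given Kdo2-lipid A (KLA), an agonist of Toll-like receptor 4, for 6 h. The macrophages formed a Tdg cohort (WT and TDG iKO) and a Tet cohort (WT and TET iTKO), with 2 libraries in each of 8 groups.

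TDG iKO mice carried floxed Tdg and TET iTKO mice carried floxed Tet1, Tet2 and Tet3, together with a reporter preceded by a floxed stop cassette. The Cre was a tamoxifen-activated CreERT2 under a promoter active in most tissues, inserted at the Ndor1 locus, so deletion was not limited to T cells or macrophages by design. Cre-carrying and control mice were adult and both received tamoxifen. The names of the Tet cohort libraries gave the 0 h and 6 h libraries of one genotype and replicate a shared number, taken here as the animal. The labels did not state that replicates of a group came from separate animals or cultures, so p-values measured the spread between these samples, which may be technical.

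The members are basic leucine zipper proteins, which bind DNA only as dimers. FOS proteins pair with JUN proteins to form AP-1, JUN proteins also pair among themselves, and BATF proteins pair with JUN proteins in place of FOS and can bind beside IRF4 or IRF8 at composite sites. Fos, Fosb, Jun and Junb are immediate early genes, transcribed within minutes of a stimulus through MAP kinases and often down again within hours, while Fosl1 and Fosl2 usually follow later. BATF is required for Th17 and follicular helper T cell differentiation and also acts in Th2 cells, BATF3 is best known from cross-presenting dendritic cells, and BATF2 is an interferon-induced gene of macrophages.

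By mm9 coordinates (GENCODE vM1), Fos (chromosome 12, 86814840 to 86818223, plus strand) and Batf (chromosome 12, 87027619 to 87050037, plus strand) lay 209.4 kb apart, with Jdp2, whose product binds JUN proteins, between them. Batf2 (chromosome 19, 6140983 to 6172476, plus) and Fosl1 (chromosome 19, 5447703 to 5455945, plus) lay 685.0 kb apart. The others were Batf3 (chromosome 1, 192922293 to 192932822, plus), Jun (chromosome 4, 94715725 to 94718913, minus), Junb (chromosome 8, 87500811 to 87502617, minus), Jund (chromosome 8, 73221638 to 73224515, plus), Fosb (chromosome 7, 19888070 to 19895394, minus) and Fosl2 (chromosome 5, 32438845 to 32460204, plus). Annotated genes on the opposite strand overlapped Batf2 (Arl2), Jun (BC042782), Jund (Gm11175) and Fosl1 (Ccdc85b). On the same strand, Gm5510 and n-R5s19 overlapped Batf2. The annotation and strand setting of the counting were not given in the sources used here, so the counts of Batf2, Jun, Jund and Fosl1 are uncertain.

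The bases upstream of the RefSeq start are shown for members that DESeq2 called between 0 h and 6 h of KLA in WT or knockout BMDM of either cohort. Those with a promoter sequence were Batf, Junb and Fosl2, which were higher at 6 h, and Jun and Fos, which were lower. Fos was called in TET iTKO alone. Of the 10 members 8 had an entry in the RefSeq promoter table, and Batf2 and Fosl1 had none. The sequences are from RefSeq (GRCm38.p6), read 5′ to 3′ on the gene's strand, and each matched mm9 exactly once on its chromosome. Capitals mark matches to the motifs named after the sequences, each searched on both strands.
Batf, chr12:87027420-87027618, plus: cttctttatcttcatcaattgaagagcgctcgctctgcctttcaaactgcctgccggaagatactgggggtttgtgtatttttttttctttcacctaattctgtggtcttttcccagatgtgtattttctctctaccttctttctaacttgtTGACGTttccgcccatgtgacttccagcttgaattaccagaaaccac
Junb, chr8:87502648-87502897, minus: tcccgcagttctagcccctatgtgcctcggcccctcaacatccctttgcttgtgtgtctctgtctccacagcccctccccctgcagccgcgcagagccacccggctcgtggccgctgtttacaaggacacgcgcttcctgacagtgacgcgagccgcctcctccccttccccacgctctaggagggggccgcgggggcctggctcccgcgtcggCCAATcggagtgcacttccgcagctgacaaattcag
Fosl2, chr5:32438595-32438844, plus: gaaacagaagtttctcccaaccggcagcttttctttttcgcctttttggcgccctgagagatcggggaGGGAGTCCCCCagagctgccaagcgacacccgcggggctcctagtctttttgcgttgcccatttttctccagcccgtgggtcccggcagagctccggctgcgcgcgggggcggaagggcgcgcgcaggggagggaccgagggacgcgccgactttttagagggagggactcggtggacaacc
Jun, chr4:94718914-94719163, minus: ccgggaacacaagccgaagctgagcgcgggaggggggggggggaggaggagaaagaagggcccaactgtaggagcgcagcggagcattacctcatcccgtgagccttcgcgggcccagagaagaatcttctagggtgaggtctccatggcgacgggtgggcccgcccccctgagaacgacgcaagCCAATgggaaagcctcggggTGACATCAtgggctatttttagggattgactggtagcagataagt
Fos, chr12:86814590-86814839, plus: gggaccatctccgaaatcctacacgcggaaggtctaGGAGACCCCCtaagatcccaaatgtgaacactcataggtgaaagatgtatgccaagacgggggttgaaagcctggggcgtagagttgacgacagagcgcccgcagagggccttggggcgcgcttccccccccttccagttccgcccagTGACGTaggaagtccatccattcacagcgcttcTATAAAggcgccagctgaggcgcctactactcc
The Batf window was shortened to 199 bases, where an annotated exon of Batf begins, and the others were 250 bases long.

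Counted from the start, TGACGT, the core of a cyclic AMP response element, stood at -98 to -93 in Batf and at -66 to -61 in Fos. The related TGACNTCA stood at -45 to -38 in Jun, as TGACATCA. CCAAT stood at -65 to -61 in Jun and -36 to -32 in Junb, and TATAAA at -33 to -28 in Fos. A kappaB match lay at -214 to -205 in Fos, and matches that overlapped each other lay at -182 to -173 and -181 to -172 in Fosl2. Of 32536 windows of 250 bases upstream of mouse genes, 6.5% held TGACGT, 7.43% TGACNTCA, 12.3% TATAAA, 33.8% CCAAT and 3.92% the kappaB motif. The AP-1 site TGANTCA (6.73% of windows) and the CArG box (1.48%) were not in these 5 windows. Bases further upstream were not searched.

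Assigned counts per library ranged from 4982950, in WT BMDM at 0 h of replicate 2 of the Tdg cohort, to 26657729. Levels are given as normalised counts, that is, counts divided by a size factor that puts all 24 libraries on one scale. Summed macrophage markers (7 of 7 measured) lay between 21400 and 28800 CPM (counts scaled to the library total) in BMDM and between 9.88 and 60.3 CPM in Th2 cells, where Csf1r, Mertk, Lyz2 and Fcgr1 were at or under 3 counts in every library. Summed T cell markers (6 of 6) lay between 1770 and 2390 CPM in Th2 cells and between 7.68 and 28.1 CPM in BMDM. Gata3, Il4, Il5 and Il13 summed to 425 to 581 CPM in Th2 cells, and none exceeded 3 counts in any BMDM library. Tdg had 0 to 7 reads in every library, WT included, and Tet1, Tet2 and Tet3 counts do not separate the floxed exons from the others, so these genes could not check the genotype labels.

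Some libraries stood apart. Th2 replicates 3 and 4 of each genotype differed by little more than sampling noise (mean chi-square per gene 1.34 for TDG iKO and 1.51 for WT, where the remaining Th2 pairs gave 21.3 to 218), so they were counted as 1 sample and n = 3 for Th2 cells. They carried library numbers 17 to 20, against 1 to 4 for replicates 1 and 2. In the Tdg cohort, replicate 1 (library numbers 5 to 8) and replicate 2 (9 to 12) differed more (chi-square 37.4 to 80.6) than the replicates of the Tet cohort (10.9 to 25.2).

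**Figure D1:**
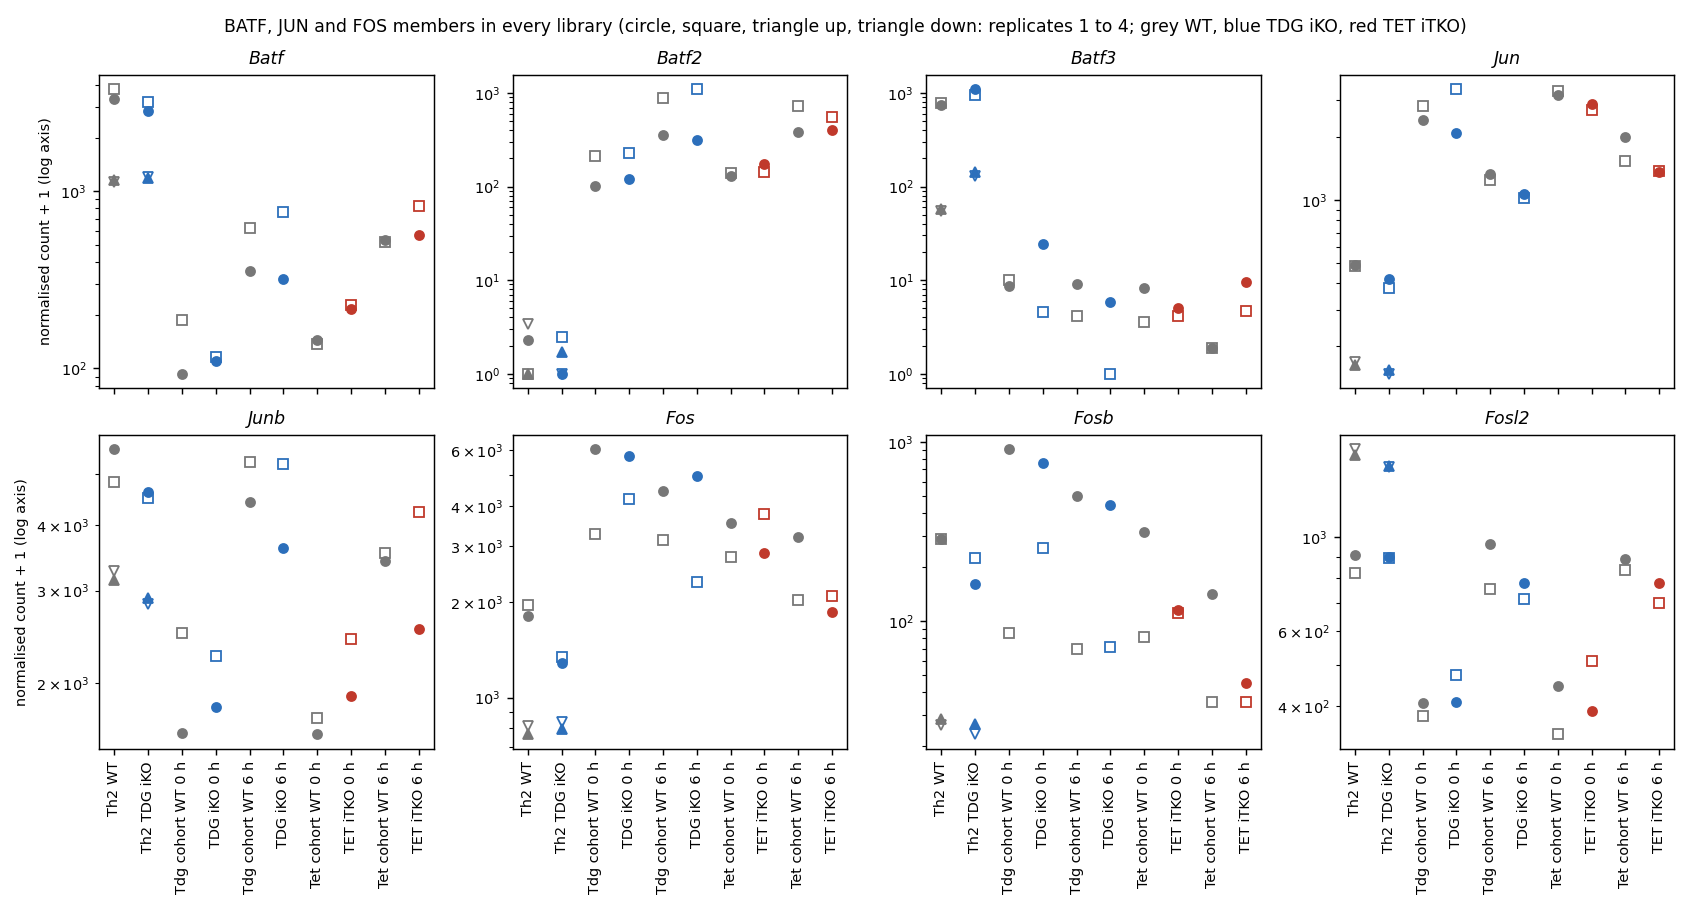
Normalised count plus 1 (log axis) of 8 members in every library, by group; marker shape gives the replicate, and grey, blue and red mark WT, TDG iKO and TET iTKO. Batf and Batf3 sit highest in Th2 cells, Batf2 is near 0 there, and the 6 h libraries lie above the 0 h libraries for Batf, Batf2, Junb and Fosl2 and below them for Jun.

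Among WT cells, Th2 cells carried far more Batf and Batf3, more Junb and Fosl2, and less Batf2, Jun and Fos than resting BMDM. Batf had normalised counts of 3340, 3791, 1154 and 1125 in the 4 WT Th2 libraries. Resting WT BMDM had 92.3 and 185.8 (Tdg cohort) or 142.8 and 135.9 (Tet cohort). The groups did not overlap, and Batf was higher in Th2 cells by 4.33 (SE 0.52) and 4.32 (SE 0.51) on the log2 scale, about 20.1-fold and 19.9-fold (DESeq2 adjusted p 1.35e-15 and 3.07e-16). DESeq2 called 7 of the 10 members against the Tdg cohort, where it called 49.7% of all genes tested, and 8 against the Tet cohort, where it called 52.4%. About every other gene was thus called, and the median log2 difference of all genes tested was 0.12 and 0.15. Cell type, culture and library preparation cannot be told apart in this comparison, and fewer cells of a type and less RNA per cell cannot be told apart in any of these bulk samples.

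Batf3 was close to absent from resting BMDM, with 9 reads (Tdg cohort) and 12 reads (Tet cohort) in the 2 WT libraries at 0 h, against 1355 in the 4 WT Th2 libraries. The CPM in Th2 cells was 37.3 times that in the Tdg cohort (95% interval 19.6 to 81.7) and 66.6 times that in the Tet cohort (38.0 to 129), intervals that cover counting error only. These ratios pool the libraries of a group. Batf3 had 565 and 550 reads in WT Th2 replicates 1 and 2 and 105 and 135 in replicates 3 and 4. Most of the assigned counts of that group, however, came from replicates 3 and 4. The fitted log2 differences, which count these as 1 sample, were 5.97 (SE 0.96, 62.8-fold, DESeq2 adjusted p 4.34e-09) and 6.78 (SE 0.92, 110-fold, adjusted p 1.25e-12). Batf3 also varied most within Th2 cells, with normalised counts of 743.9 and 773.1 in WT replicates 1 and 2 but 56.6 and 53.4 in replicates 3 and 4. Even these were above every BMDM library, of which the highest had 23.4.

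Batf2 showed the opposite distribution. It had 7 reads (0.112 CPM) over the 4 WT Th2 libraries and 2 reads (0.0422 CPM) over the 4 TDG iKO Th2 libraries. Resting WT BMDM had normalised counts of 100.0 and 210.1 (Tdg cohort) and 128.4 and 139.8 (Tet cohort). Its CPM in WT Th2 cells was lower by a ratio of 84.9 (95% counting interval 40.2 to 215) and 86.8 (41.7 to 217), and the fitted log2 differences were -7.08 (SE 0.81, DESeq2 adjusted p 2.28e-17) and -6.87 (SE 0.80, adjusted p 9.23e-17).

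The JUN members were split between the cell types. Jun, the founding member of the family, had 488.5, 482.1, 162.8 and 167.4 normalised counts in WT Th2 cells and 2425, 2808, 3179 and 3314 in the 4 WT BMDM libraries at 0 h. It was lower in Th2 cells by a log2 difference of -2.80 (SE 0.45, DESeq2 adjusted p 4.22e-09) against the Tdg cohort and -3.09 (SE 0.45, adjusted p 4.74e-11) against the Tet cohort. Junb, a weaker activator than Jun that acts on Th2 cytokine genes, had 5569, 4828, 3142 and 3262 in WT Th2 cells and 1605, 2488, 1598 and 1717 in WT BMDM. It was higher in Th2 cells by 1.15 (SE 0.34, DESeq2 adjusted p 0.0023) and 1.47 (SE 0.34, adjusted p 6.08e-05).

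Of the FOS members, Fos was lower in Th2 cells, with 1805, 1954, 765.8 and 811.4 normalised counts in WT against 6037, 3277, 3533 and 2770 in WT BMDM at 0 h. Its log2 difference was -1.63 (SE 0.45, DESeq2 adjusted p 0.000917) from the Tdg cohort and -1.04 (SE 0.45, adjusted p 0.0389) from the Tet cohort. The Fos call was lost against the Tdg cohort without WT replicate 1 at 0 h (adjusted p 0.0772) and against the Tet cohort without either WT replicate at 0 h (0.293 and 0.12) or Th2 replicate 1 (0.056). Fosl2 was higher in Th2 cells, with 904.5, 823.7, 1562 and 1609 against 405.0, 377.6, 445.4 and 342.6, by 1.5 (SE 0.38, DESeq2 adjusted p 0.000283) and 1.51 (SE 0.37, adjusted p 0.000187). Fosb ranged from 25.3 to 285.7 in WT Th2 cells and from 80.6 to 906.2 in WT BMDM at 0 h, and was not called (DESeq2 adjusted p 0.437 and 0.992).

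Jund and Fosl1 were near the limit of detection. Jund had at most 35.7 normalised counts in any library and at most 15 reads in any BMDM library. Of the 32-base windows of its exons, 4.81% occurred elsewhere in mm9, against at most 0.276% for the other members, and whether this or the overlapping Gm11175 lowered its count was not tested. Fosl1 had 105 reads in the WT Th2 libraries, and in resting WT BMDM 21 (Tdg cohort) and 3 (Tet cohort). The difference from the Tet cohort was called (DESeq2 adjusted p 0.000604), with a CPM ratio of 20.6 (95% counting interval 6.87 to 102), and that from the Tdg cohort was not, with a ratio of 1.24 (0.769 to 2.08). The CPM of Jund in WT Th2 cells was 6.12 times (2.91 to 15.4) and 8.5 times (4.74 to 16.8) that of the cohorts. The fitted log2 differences were smaller, 1.4 (SE 1.24, DESeq2 adjusted p 0.352) and 2.41 (SE 1.21, adjusted p 0.0832), without a call.

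Per kb of exon, which allows genes to be compared, Batf was the most abundant member in WT Th2 cells (mean 2890 normalised counts per kb, 40.3% of the sum over the 10 members). Junb followed (2510, 35.0%), then Batf3 (736), Fos (644), Fosl2 (189), Jun (119), Fosb (53.1), Fosl1 (18.9), Jund (8.68) and Batf2 (0.331). The order differed between samples. Batf exceeded Junb in replicates 1 and 2 (3500 and 3970 against 3080 and 2670 per kb), while in the mean of replicates 3 and 4 Junb led (1770 against 1190) and Batf3 (77.3) was below Fos (335) and Fosl2 (271). In resting WT BMDM of the Tdg cohort the order began with Fos (1980, 45.3%), Junb (1130), Jun (820) and Batf (146). In the Tet cohort it began with Fos (1340, 37.2%), Jun (1020), Junb (917) and Batf (146).

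**Figure D2:**
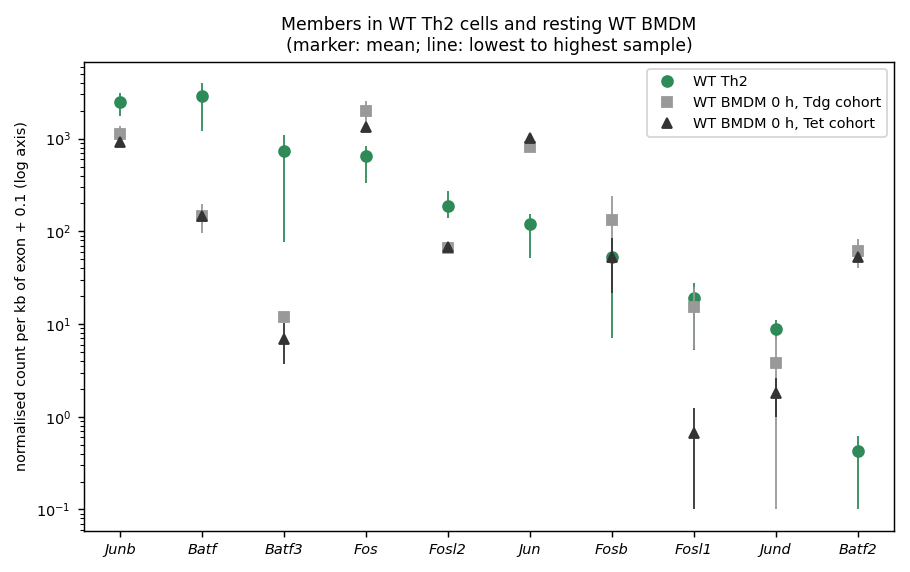
Mean normalised count per kb of exon plus 0.1 (log axis) of the 10 members in WT Th2 cells (n = 3) and resting WT BMDM of each cohort (n = 2), with lines from the lowest to the highest sample. Th2 cells lie above BMDM for Junb, Batf, Batf3 and Fosl2 and below for Fos, Jun and Batf2.

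Of partners and regulators from lists of other genes, Irf4 and Irf8, the IRF partners of BATF, went in opposite directions. Irf4 had 8973, 9308, 1701 and 1716 normalised counts in WT Th2 cells and 0 to 26 in WT BMDM at 0 h. Irf8 was lower in Th2 cells by -1.70 (SE 0.46, DESeq2 adjusted p 0.00076) and -1.93 (SE 0.46, adjusted p 9.36e-05). Among 11 other bZIP partners, 1 was higher and 4 lower in Th2 cells against the Tdg cohort (median -0.27), and 2 higher and 4 lower against the Tet cohort (median -0.54). Those lower against both cohorts included Atf3, a stress-induced factor (-3.35 and -2.91), and Maf (-1.87 and -1.99). Of 21 AP-1 target genes tested, 6 were higher and 14 lower in Th2 cells against each cohort. Of 16 genes of the MAP kinase cascade, 5 were higher and 1 lower against the Tdg cohort and 4 higher and 1 lower against the Tet cohort, with Mapk11, a p38 kinase, at 3.91 and 4.24. Of 9 factors that act on the Fos and Jun promoters, 4 and 2 were higher and 4 and 4 lower, with Crem, a cyclic AMP-responsive factor, higher by 3.64 and 3.41. These counts stand beside the 49.7% and 52.4% of all genes that were called, a share that the MAP kinase genes (6 and 5 of 16) did not reach.

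After 6 h of KLA, BMDM had more Batf, Batf2, Junb and Fosl2 and less Jun than at 0 h. DESeq2 called 5 of the 10 members in WT of the Tdg cohort, where it called 8.6% of all genes tested, and 4 in TDG iKO (7.08% of genes). It called 5 in WT of the Tet cohort (24.1% of genes) and 6 in TET iTKO (24.4% of genes). Batf, Batf2, Junb and Jun were called in all 4 comparisons. edgeR called 5 in WT (27.4% of genes) and 6 in TET iTKO (26.3% of genes) of the Tet cohort. It called 1 member in each genotype of the Tdg cohort, Fosl2 in WT (3.71% of genes) and Jun in TDG iKO (3.11% of genes), with edgeR adjusted p-values of 0.0742 to 0.197 for the other 4 in WT.

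Batf in WT of the Tet cohort went from 142.8 and 135.9 normalised counts at 0 h to 530.5 and 518.3 at 6 h, a log2 change of 1.92 (SE 0.20, DESeq2 adjusted p 9.02e-20). In TET iTKO it went from 216.3 and 225.8 to 562.5 and 826.3, by 1.65 (SE 0.20, adjusted p 1.74e-15). The Tdg cohort was more scattered, with 92.3 and 185.8 at 0 h and 352.7 and 621.5 at 6 h in WT (1.83, SE 0.54, DESeq2 adjusted p 0.0125). In TDG iKO the values were 108.5 and 115.6, then 317.6 and 763.4 (2.28, SE 0.54, adjusted p 0.000667). The 0 h and 6 h groups did not overlap in any of the 4, and over the 8 pairs of libraries with the same genotype and number the ratio of 6 h to 0 h lay between 2.6 and 6.6.

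Batf2 rose to a similar degree, from 128.4 and 139.8 to 381.0 and 726.8 in WT of the Tet cohort (2.05, SE 0.27, DESeq2 adjusted p 2.4e-13) and from 172.2 and 142.9 to 404.5 and 555.1 in TET iTKO (1.61, SE 0.27, adjusted p 1.98e-08). Batf2 in WT of the Tdg cohort rose from 100.0 and 210.1 to 352.7 and 887.7 (2.02, SE 0.67, DESeq2 adjusted p 0.0333). In TDG iKO it rose from 118.3 and 226.2 to 316.0 and 1111 (2.06, SE 0.66, adjusted p 0.0297). Replicate 2 of the Tdg cohort was the higher at both times in both genotypes, and the ratio of 6 h to 0 h was 2.35 to 5.2 over the 8 pairs. Batf3 stayed between 0 and 23.4 normalised counts in all 16 BMDM libraries.

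Junb and Jun moved in opposite directions. Junb went from 1598 and 1717 to 3412 and 3530 in WT of the Tet cohort (1.07, SE 0.18, DESeq2 adjusted p 2.68e-08) and from 1893 and 2430 to 2538 and 4231 in TET iTKO (0.65, SE 0.18, adjusted p 0.002). Its rise in the Tdg cohort was 1.25 (SE 0.35, DESeq2 adjusted p 0.00699) in WT and 1.13 (SE 0.35, adjusted p 0.021) in TDG iKO, with 1605 to 2488 normalised counts in the 4 libraries at 0 h and 3614 to 5278 at 6 h. Jun fell from 3179 and 3314 to 2007 and 1545 in WT of the Tet cohort (-0.86, SE 0.13, DESeq2 adjusted p 5.01e-10) and from 2866 and 2682 to 1356 and 1381 in TET iTKO (-1.02, SE 0.13, adjusted p 1.54e-13). Jun in WT of the Tdg cohort fell from 2425 and 2808 to 1331 and 1246 (-1.02, SE 0.32, DESeq2 adjusted p 0.0191). In TDG iKO it fell from 2099 and 3407 to 1066.9 and 1021 (-1.39, SE 0.32, adjusted p 0.000392). Every 0 h library exceeded every 6 h library of any BMDM group for Jun, the lowest at 0 h being 2099 and the highest at 6 h 2007.

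The ratio of Junb to Jun within a library, per kb of exon, does not depend on the size factors. It lay between 0.887 and 1.6 in the 8 libraries at 0 h (median 1.17) and between 3.0 and 9.03 in the 8 at 6 h (median 5.64), without overlap. In the 8 Th2 libraries it lay between 17.7 and 34.4. It was lowest in WT BMDM of the Tet cohort at 0 h, 0.887 and 0.914, so Jun exceeded Junb per kb only in those 2 libraries.

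**Figure D3:**
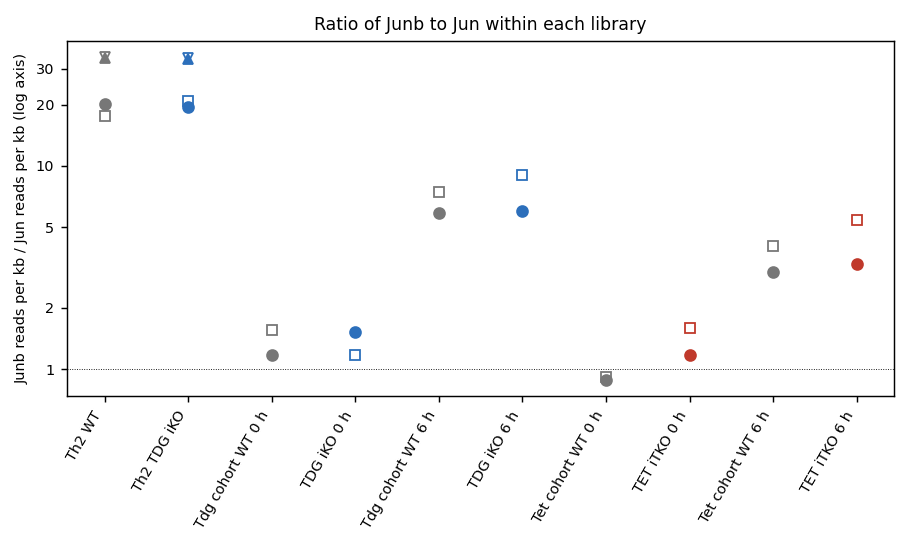
Reads per kb of Junb divided by reads per kb of Jun in each library (log axis; dotted line at 1), by group, with marker shapes for replicates. The 8 BMDM libraries at 0 h lie between 0.887 and 1.6, the 8 at 6 h between 3.0 and 9.03, and the 8 Th2 libraries between 17.7 and 34.4.

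Fosl2, which lacks the strong activation domain of Fos, rose with Batf and Junb. It went from 445.4 and 342.6 to 885.3 and 833.8 in WT of the Tet cohort (1.14, SE 0.18, DESeq2 adjusted p 1.41e-09) and from 389.5 and 510.0 to 780.7 and 700.7 in TET iTKO (0.72, SE 0.18, adjusted p 0.000351). Fosl2 in WT of the Tdg cohort went from 405.0 and 377.6 to 960.4 and 754.6 (1.13, SE 0.29, DESeq2 adjusted p 0.00232). In TDG iKO the values were 408.0 and 473.3, then 778.6 and 715.0 (0.77, SE 0.28, adjusted p 0.0832), which did not pass. No library at 6 h was below any at 0 h for Fosl2 in the 16 BMDM libraries.

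Fos and Fosb were lower at 6 h than at 0 h in all 8 pairs of same-numbered libraries, with ratios of 0.548 to 0.954 for Fos and 0.278 to 0.811 for Fosb. Fos was called in TET iTKO alone, where it fell from 2857 and 3779 to 1856 and 2087 (-0.75, SE 0.18, DESeq2 adjusted p 0.000365). In WT of the Tet cohort it had 3533 and 2770, then 3189 and 2021 (-0.27, SE 0.18, adjusted p 0.338). Its log2 change in the Tdg cohort was -0.29 (SE 0.45) in WT and -0.45 (SE 0.45) in TDG iKO, neither of which was called. Fosb had 314.3 and 80.6 at 0 h and 139.8 and 34.4 at 6 h in WT of the Tet cohort, and 113.8 and 109.8, then 44.2 and 34.2, in TET iTKO. In WT the difference between animals was larger than the change within each. With the 0 h and 6 h libraries of an animal paired (the block nested in genotype) Fosb fell by 1.19 in WT and 1.52 in TET iTKO on the log2 scale (DESeq2 adjusted p 0.00154 and 5.56e-05). Under that fit Fos was called in WT as well (-0.29, adjusted p 0.0227), and 7 members were called in WT (25.8% of genes) and 7 in TET iTKO (25.9% of genes).

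In the Tdg cohort, Fos and Fosb followed the replicate number. Fosb had 906.2, 755.5, 495.4 and 441.4 normalised counts in the libraries of replicate 1 and 85.3, 255.8, 69.2 and 71.0 in those of replicate 2, in the order WT 0 h, TDG iKO 0 h, WT 6 h and TDG iKO 6 h. Fos had 4465 to 6037 in replicate 1 and 2310 to 4214 in replicate 2. Neither gene overlapped between the replicates, which also differed over all genes (mean chi-square per gene 37.4 to 80.6). The share of all genes without such overlap was not counted, so whether this is particular to Fos and Fosb cannot be said. Summed neutrophil and granule markers differed within each group too. They were 37.1 and 160 CPM in WT and 29.5 and 512 in TDG iKO at 0 h, and 25.1 and 191 in WT and 27.7 and 460 in TDG iKO at 6 h. Their part in the member values was not tested. The spread of Fosb set its interval, so that its log2 change after KLA lay between -3.80 and 2.17 in WT.

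**Figure D4:**
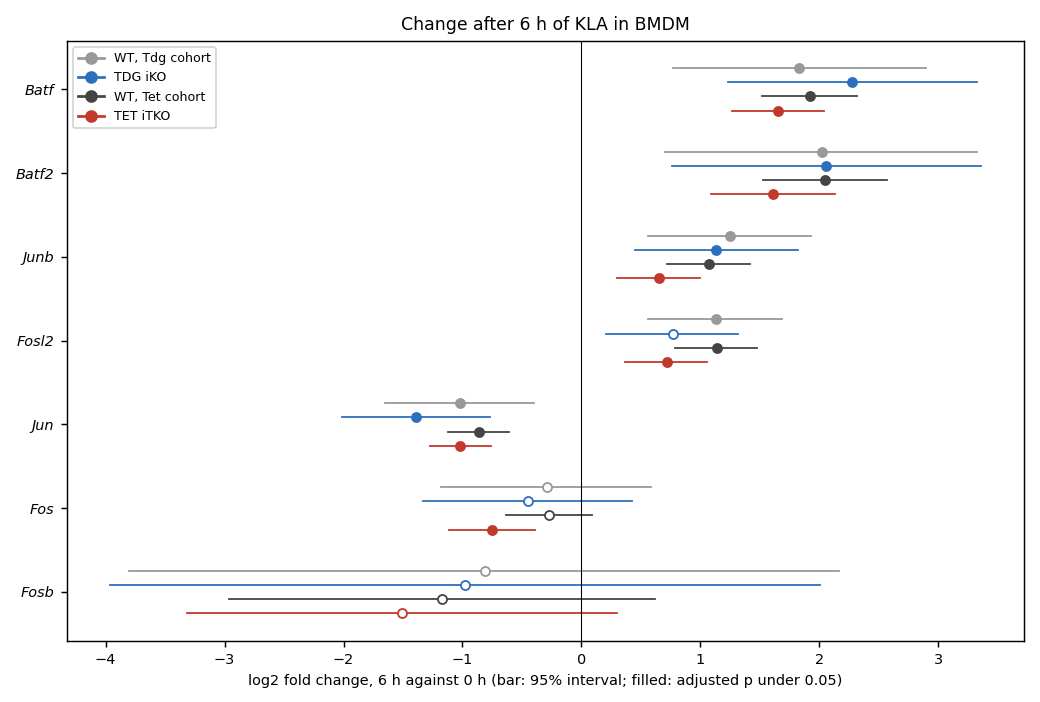
DESeq2 log2 fold change after 6 h of KLA for 7 members in 4 comparisons, with 95% intervals; filled points have an adjusted p under 0.05. Batf, Batf2 and Junb lie right of 0 and Jun left of 0 in all 4, and Fosb has the widest intervals.

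The calls in the Tdg cohort rested on few libraries. Each group had 2, so leaving out 1 left that group with a single library. Leaving out 1 library at a time left 1 to 4 of the 5 calls in WT, with 1 (Fosl2) without replicate 2 at 6 h, 2 without replicate 1 at either time, and 4 without replicate 2 at 0 h. Over all genes, 350 were called in WT without replicate 2 at 6 h and 2218 without replicate 1 at 0 h, against 1001 with all libraries. In TDG iKO it left 1 of 4 (Jun) without replicate 2 at 6 h, 2 without either replicate at 0 h, and 4 without replicate 1 at 6 h. Without any 1 library of the Tet cohort, 5 to 7 members were called in WT and 4 to 5 in TET iTKO. There, Junb in TET iTKO lost its call without replicate 1 at 0 h (adjusted p 0.146) or replicate 2 at 6 h (0.381, a log2 change of 0.24), and Fosl2 without replicate 1 at 0 h (0.0569). Fos in TET iTKO kept its call only without replicate 1 at 0 h, with adjusted p-values of 0.0873 to 0.304 without another library.

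Per kb, the order of the members in BMDM changed with KLA. At 6 h Junb was the most abundant member in WT of both cohorts (2690 and 1920 normalised counts per kb, 47.2% and 42.4% of the sum). Fos came next (1610 and 1110). Batf, at 510 and 549, was beside Jun, at 404 and 557, where it had been at 146 against 820 and 1020 at 0 h. Batf2 (246 and 220) and Fosl2 (146 and 147) followed.

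Among the other lists, 8 of 17 tested AP-1 target genes rose and 2 fell in WT of the Tdg cohort, and 10 rose and 2 fell in WT of the Tet cohort (median log2 change 1.26 and 0.65, against -0.03 and -0.01 over all genes tested, of which 8.6% and 24.1% were called). The cytokine genes Il6 and Il1b and Ptgs2 were those with the largest log2 change, and Ptgs2, the inducible cyclooxygenase, rose by 6.38 (SE 0.43) and 6.48 (SE 0.53). Of 11 other bZIP partners, Maff, a small MAF protein without an activation domain, rose by 3.61 (SE 0.66) and 2.82 (SE 0.36) in WT of the Tdg and Tet cohorts (DESeq2 adjusted p 2.34e-06 and 2.01e-13). Of 15 tested genes of the MAP kinase cascade, Map2k1 alone was called in WT of the Tdg cohort (0.93, SE 0.28), and 3 rose and 1, Map3k1, fell in WT of the Tet cohort (medians 0.50 and 0.18). The edgeR adjusted p of Map2k1 in WT was 0.0786 in the Tdg cohort and 0.000215 in the Tet cohort. Of 9 factors that act on the Fos and Jun promoters, none rose in WT, 1 fell in the Tdg cohort and 3 fell in the Tet cohort. Mef2c fell in both, by 1.72 and 1.58 on the log2 scale (DESeq2 adjusted p 0.0123 and 7.02e-12), and Mef2a (-0.57) and Elk3 (-0.38) fell in the Tet cohort. The edgeR adjusted p of Mef2c was 0.125 in the Tdg cohort and 0.00016 in the Tet cohort. Irf8 was lower at 6 h in the Tet cohort, by -0.49 (SE 0.12) in WT and -0.58 (SE 0.12) in TET iTKO.

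Loss of the TET enzymes left 9 of the 10 members without a call in resting BMDM. Batf was the exception, with 216.3 and 225.8 normalised counts in TET iTKO against 142.8 and 135.9 in WT at 0 h, which did not overlap. The log2 difference was 0.67 (SE 0.21, 1.59-fold, DESeq2 adjusted p 0.0234), in a comparison where 7.5% of all genes tested were called. The edgeR adjusted p was 0.0549, and with any 1 of the 4 libraries left out the DESeq2 adjusted p was 0.11 to 0.323 with log2 differences of 0.63 to 0.70. Junb, with 1893 and 2430 against 1598 and 1717, had a log2 difference of 0.38 (95% interval 0.03 to 0.73, adjusted p 0.23). Jun, with 2866 and 2682 against 3179 and 3314, had one of -0.23 (-0.48 to 0.03, adjusted p 0.392). The intervals of Fos (-0.28 to 0.43), Fosl2 (-0.15 to 0.55), Batf2 (-0.31 to 0.77) and Fosb (-2.61 to 0.97) included 0.

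Markers of other cells also differed between these groups. Summed macrophage markers were 23000 and 23100 CPM in TET iTKO and 26200 and 27300 CPM in WT at 0 h. Summed neutrophil and granule markers (7 of 8 measured) were 71.7 and 159 CPM against 29.9 and 55.0, and B cell markers (5 of 5) 5.86 and 22.4 against 1.49 and 1.95. Progenitor markers Kit and Cd34 summed to 5.71 and 22 CPM against 2.60 and 2.70, and dendritic cell markers (5 of 5, with Cd209a at or under 3 counts in every BMDM library) to 1.14 and 1.15 against 0.195 and 0.233. Their part in the Batf difference was not tested.

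At 6 h of KLA no member was called by DESeq2 for TET iTKO against WT (6.58% of genes called) or edgeR. By DESeq2, 3 members had an unadjusted p under 0.05, as did 1894 of all genes. These 3 members were Jun, Batf and Fos. Jun had 1356 and 1381 normalised counts in TET iTKO and 2007 and 1545 in WT, a log2 difference of -0.38 (SE 0.13, DESeq2 adjusted p 0.0537). Without WT replicate 2 both Jun and Fos passed (-0.55 and -0.70, adjusted p 0.00143 and 0.00479). Batf had 562.5 and 826.3 against 530.5 and 518.3, a log2 difference of 0.40 (95% interval 0.02 to 0.77), and passed only without TET iTKO replicate 1 (0.64, adjusted p 0.0324). Fos had 1856 and 2087 against 3189 and 2021 (-0.41, 95% interval -0.77 to -0.05, DESeq2 adjusted p 0.211). Summed neutrophil and granule markers at 6 h were 79.0 and 125 CPM in TET iTKO and 38.0 to 40.0 CPM in WT. Macrophage markers lay at 21700 to 22400 CPM against 25500 to 27200, B cell markers at 4.1 to 19.6 against 1.72 to 2.49, progenitor markers at 3.57 to 12.6 against 1.01 to 1.21 and dendritic cell markers at 0.512 to 0.727 against 0.238 to 0.303. Their part in these values was not tested. Junb (-0.39 to 0.31), Fosl2 (-0.56 to 0.12), Batf2 (-0.72 to 0.29) and Fosb (-2.97 to 0.65) had intervals that included 0.

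The response to KLA itself was compared between genotypes as an interaction. DESeq2 called no member in the Tet cohort, where it called 0.426% of genes. No member had an unadjusted p under 0.05 by DESeq2, while 544 of all genes did. The differences in log2 response, TET iTKO minus WT, were -0.27 for Batf (95% interval -0.82 to 0.29), -0.44 for Batf2 (-1.18 to 0.29), -0.43 for Junb (-0.92 to 0.07), -0.42 for Fosl2 (-0.91 to 0.07), -0.48 for Fos (-0.99 to 0.03) and -0.16 for Jun (-0.52 to 0.20). Junb passed without TET iTKO replicate 2 at 6 h, the only library whose removal added a call. edgeR called no member, with 1 gene called in all.

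Several AP-1 target genes differed in TET iTKO. At 0 h 9 of 17 tested were higher and 2 lower (median 0.39 against 0.01 over all genes, of which 7.5% were called), and at 6 h 6 were higher and 4 lower (median 0.11, with 6.58% of all genes called). The summed markers of other cells given above differed between the same libraries, and their part in these values was not tested. At 0 h Il1b was higher by 3.82 (SE 0.53, DESeq2 adjusted p 1.93e-10) and Ptgs2 by 2.54 (SE 0.53, adjusted p 9.37e-05). The difference of the TET and TDG effects at 0 h was called by DESeq2 for Il1b (3.68, SE 0.84) and Ptgs2 (2.96, SE 0.66) and not by edgeR (adjusted p 0.566 and 0.379). In the KLA response of TET iTKO against WT the chemokine gene Ccl2 alone of 17 targets was called (-0.82, SE 0.21, DESeq2 adjusted p 0.0316). It was not called by edgeR (adjusted p 0.465). At 6 h the protease gene Mmp13 was higher by 2.08 (SE 0.42, DESeq2 adjusted p 5.99e-05). Among the bZIP partners Atf4, a factor of the integrated stress response, was higher at 0 h (0.58, SE 0.13, adjusted p 0.000358) and at 6 h (0.48, SE 0.13, adjusted p 0.00637). No gene of the MAP kinase cascade and no factor of the Fos and Jun promoters was called at either time, of 15 and 9 tested.

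**Figure D5:**
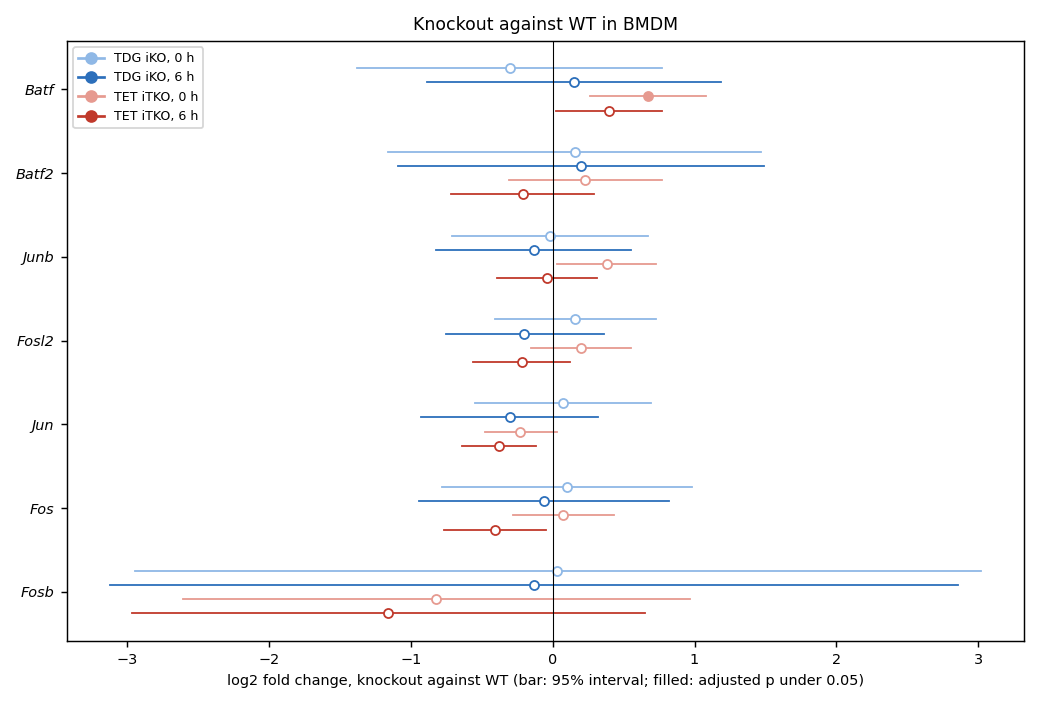
DESeq2 log2 fold change of knockout against WT in BMDM for 7 members at 0 h and 6 h of KLA, with 95% intervals; the filled point has an adjusted p under 0.05. Batf in TET iTKO at 0 h, at 0.67, is the only call, and the TDG iKO intervals are wider than those of TET iTKO.

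Loss of TDG changed no member past the threshold in BMDM. At 0 h and at 6 h DESeq2 and edgeR called 0.0% of genes, and no member had an unadjusted p under 0.05 (265 and 34 of all genes did by DESeq2, 125 and 27 by edgeR). Batf had 108.5 and 115.6 normalised counts in TDG iKO and 92.3 and 185.8 in WT at 0 h, a log2 difference of -0.30 (95% interval -1.38 to 0.77), and 0.15 (-0.89 to 1.19) at 6 h. Jun had differences of 0.07 (-0.55 to 0.69) at 0 h and -0.30 (-0.93 to 0.32) at 6 h, where 1066.9 and 1021 stood against 1331 and 1246 without overlap. The intervals at 0 h and 6 h were -0.71 to 0.67 and -0.82 to 0.55 for Junb, -0.41 to 0.73 and -0.75 to 0.36 for Fosl2, -0.78 to 0.98 and -0.94 to 0.82 for Fos, and -1.16 to 1.47 and -1.09 to 1.49 for Batf2. In the KLA response, TDG iKO minus WT, no member and 0.0% of genes were called (37 genes had an unadjusted p under 0.05 by DESeq2 and 24 by edgeR), and the difference for Batf was 0.45 (-1.04 to 1.95). The counts of 0 over all genes at 0 h and in the KLA response rested on WT replicate 1 at 0 h. Without it the WT group at 0 h was 1 library, replicate 2, which had the lowest assigned counts of all libraries (4982950). That fit called genes at 0 h and in the KLA response, with no member among them, but cannot measure the spread within that group.

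The TET effect and the TDG effect on Batf were not shown to differ. Their difference at 0 h was 0.96 (95% interval -0.26 to 2.19, DESeq2 adjusted p 0.829) and at 6 h 0.26 (-0.92 to 1.44, adjusted p 1.0). No member was called in either comparison, where DESeq2 called 0.355% and 0.0765% of genes and edgeR called 0 and 1 gene. Without WT replicate 1 at 0 h of the Tdg cohort, which leaves 1 library in that group, no member was called at 0 h and the Batf difference was 1.43.

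In Th2 cells no member was called between TDG iKO and WT, and DESeq2 and edgeR called 0.0% of genes (77 and 55 had an unadjusted p under 0.05, no member among them by DESeq2). Batf3 was higher in TDG iKO in each same-numbered pair, at 1105, 943.1, 140.9 and 129.6 normalised counts where WT had 743.9, 773.1, 56.6 and 53.4. Its log2 difference was 0.47 (95% interval -1.87 to 2.80). With the replicate number as a block, a pairing that was assumed, the difference was 0.70 (SE 0.18, DESeq2 adjusted p 0.0528). That fit called 15 genes (0.147%). Treating replicates 3 and 4 as separate libraries with the block gave 0.83 (adjusted p 0.00185, 0.88% of genes called), a fit that counts 2 near-identical libraries as independent.

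Fos had 1280, 1338, 797.3 and 834.8 normalised counts in TDG iKO Th2 cells and 1805, 1954, 765.8 and 811.4 in WT, so it was lower in replicates 1 and 2 and not in 3 and 4. The log2 difference was -0.41 (95% interval -1.19 to 0.37), and with replicates 1 and 2 alone it was -0.54 (DESeq2 adjusted p 0.00509), the 1 member called in that fit (0.485% of genes). Batf had 2835, 3203, 1190 and 1203 against 3340, 3791, 1154 and 1125 (-0.20, interval -1.22 to 0.82). Jun (-1.30 to 0.77), Junb (-0.79 to 0.41), Fosb (-2.32 to 1.2) and Fosl2 (-0.73 to 0.67) had intervals on both sides of 0. No gene of the 5 lists of partners, kinases, promoter factors, IRF genes and targets was called.

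Replicates 3 and 4 of the Th2 cells differed from replicates 1 and 2 in both genotypes for 9 members. Batf (1125 to 1203 against 2835 to 3791), Batf3 (53.4 to 140.9 against 743.9 to 1105), Jun (147.0 to 167.4 against 379.3 to 488.5), Junb (2834 to 3262 against 4499 to 5569), Fos (765.8 to 834.8 against 1280 to 1954) and Fosb (22.4 to 27.5 against 159.5 to 285.7) were lower. Fosl2 (1464.5 to 1609 against 823.7 to 904.5) was higher. At low counts, Fosl1 (6.5 to 11.6 against 24.5 to 47.4) was lower and Jund (27.5 to 35.7 against 19.7 to 27.4) higher. None of the 9 overlapped between the sets, though Jund was only just apart (27.5 against 27.4). The sets also differed over all genes, with a mean chi-square per gene of 106 to 218 between them in WT and 129 to 160 in TDG iKO. The share of all genes without overlap was not counted, so whether this is particular to the members cannot be said. Irf4 followed them, with 1701 to 2563 against 8088 to 9818. These sets carry different library numbers and stand for 1 and 2 samples of each genotype, so the values are a description without a test.

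Genes whose levels resembled those of the members most were found by Pearson's r of log2(normalised count + 1) across the 16 BMDM libraries, among 9530 genes. These r are a description, since the libraries share 2 time points that separate most of the values. They were Leng9 (0.981) and Stim2 (0.979) for Batf, Cept1 (0.986) and Gbp3 (0.982) for Batf2, Por (0.969) and Sgsh (0.964) for Jun, and Cd2bp2 and Ube2z (0.966 each) for Junb. For Fos they were Aaas (0.925) and Pter (0.921), for Fosb Pter (0.939) and Tmed10 (0.924), and for Fosl2 Clec5a (0.958) and Spata13 (0.953).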

How the data were processed

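The deposited values were raw read counts per gene, which the authors made by aligning paired reads to mm9 with HISAT2 and counting with HTSeq. Neither the versions of these tools nor the gene annotation and strand option are given in the sources used here. HTSeq leaves out pairs that align to several places, and 16.6% to 32.2% of pairs per library were in that tally. The 5 tally rows were left out. Groups and replicate numbers came from the labels. The members and lists were chosen with earlier results of these data known.

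Comparisons were tested with DESeq2 1.42.0 (Wald test, R 4.3.3), since the study's methods state DESeq2 with a threshold of 0.05 on the adjusted p. Median-of-ratios size factors, default filtering and unshrunken log2 fold changes were used, with Benjamini-Hochberg adjustment over all genes tested. The Th2 libraries, each BMDM cohort and all 16 BMDM libraries were fitted in turn, and WT Th2 cells with WT BMDM at 0 h. The quasi-likelihood test of edgeR 4.0.16 was an alternative. A gene was called at an adjusted p under 0.05. 95% intervals of log2 values are the estimate with 1.96 SE on either side, and intervals of read counts are exact Poisson or binomial. The tests were tested on simulated data. From each list, up to 3 called genes of the largest log2 change whose mean normalised count reached 50 were named, and for each member of that level the 2 most similar genes. The values of 1 gene of the bZIP partner list, which is in that list's counts, are not reported here.

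Same-numbered Th2 libraries deviated together across 10273 genes (r 0.703 to 0.902), and their numbers were assumed to be pairs. The Th2 replicates of each genotype fell into sets far apart, so libraries of the same set deviate together whatever their number. Differently numbered Th2 libraries were not compared in this way, so these r cannot show the pairing. In the Tet cohort, pairs of 0 h and 6 h libraries came from shared numbers in the library names (r 0.451 and 0.464), while same-numbered libraries of different genotype did not deviate together (0.023 and 0.039). In the Tdg cohort, r was 0.325 and 0.802 between genotypes and 0.362 and 0.815 between times, from 2 pairs each.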

Additional observations from a re-analysis of the deposited data

How the results depend on the processing

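Of 721 alternative values for 74 reported member values, 630 kept direction and side of the threshold, 41 fell below it, 17 passed it and 33 changed sign, and the cause was not tested. In Th2 cells no member was called between genotypes with the replicate number as a block, 1 (Batf3) with replicates 3 and 4 separate in that block, and 1 (Fos) without them, where 15, 87 and 46 genes were called against 0. With edgeR, members called were 0 in TET iTKO against WT at 0 h and 1 each after KLA in WT of the Tdg cohort and TDG iKO. The block between genotypes of the Tet cohort, whose numbers did not pair, gave 1 call at 6 h (Jun -0.37, DESeq2 adjusted p 0.0481). In the Tdg cohort, from 2 pairs, the block nested in genotype added Fosb after KLA in TDG iKO (-1.28, adjusted p 0.00485), and in the Tet cohort it added Fos (-0.29) and Fosb (-1.19) in WT and Fosb (-1.52) in TET iTKO. One block over both genotypes added Fosb (-1.38) and Fosl2 (0.76) there and Fosb in the Tet cohort (-1.16 and -1.58), and removed Fos in TET iTKO (-0.75, adjusted p 0.0827). The blocks changed no other call. No paired analysis was possible for WT Th2 cells against BMDM because these groups share no pairing.

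Without 1 library, genes called over all genes for TET iTKO against WT ran from 276 to 752 at 0 h (915 with all libraries) and from 264 to 703 at 6 h (765), in each case fewest without TET iTKO replicate 2, and from 14 to 155 for the KLA response (52). Members called numbered 0 to 0 in TET iTKO against WT at 0 h, 0 to 2 at 6 h, 1 to 4 after KLA in WT of the Tdg cohort, 1 to 4 in TDG iKO and 0 to 1 for the KLA response of TET iTKO. Log2 values that changed sign ran, for TET iTKO against WT at 0 h, from -0.13 to 0.26 (Fos), -1.49 to 0.47 (Fosb) and -0.0 to 0.39 (Fosl2), and at 6 h from -0.61 to 0.33 (Batf2), -0.45 to 0.27 (Junb) and -1.84 to 0.17 (Fosb). For TDG iKO they ran from -0.76 to 0.30 (Batf) and -0.32 to 0.37 (Jun) at 0 h, -0.62 to 0.65 (Batf) at 6 h, -0.33 to 0.95 (Batf, KLA response), and -0.46 to 0.10 (Batf) and -0.20 to 0.10 (Fosl2) in Th2 cells. After KLA they ran from -0.66 to 0.19 (Fos) and -2.81 to 1.69 (Fosb) in WT of the Tdg cohort, -2.81 to 0.0 (Fosb) in TDG iKO, and -0.63 to 0.02 (Fos) and -2.50 to 0.12 (Fosb) in WT of the Tet cohort. Batf in the TET minus TDG effect at 6 h ran from -0.25 to 1.05, and Fosb in Th2 cells against BMDM from -2.26 to 1.22 (Tdg cohort) and -0.65 to 1.31 (Tet cohort). Against the Tet cohort Fosb was -0.14 with TMM factors, -0.07 with edgeR and -0.34 with replicates 3 and 4 separate, and Fosl2 in TDG iKO Th2 cells was 0.03 without them. None of these sign changes was in a called value. A count of 3 was 0.113 to 0.602 CPM, which limits Batf3, Jund and Fosl1 in BMDM and Batf2 in Th2 cells.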

Other observations

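Jdp2, whose product dimerises with JUN proteins and represses AP-1 targets, lies between Fos and Batf on chromosome 12, 122.1 kb from Fos and 46.8 kb from Batf. After 6 h of KLA it was higher in all 8 same-numbered pairs of BMDM libraries, with ratios of 1.19 to 2.56. Its log2 change was 1.14 (SE 0.33, DESeq2 adjusted p 0.0102) in WT and 0.87 (SE 0.32, adjusted p 0.0855) in TDG iKO of the Tdg cohort. In the Tet cohort it was 0.47 (SE 0.22, DESeq2 adjusted p 0.107) in WT and 0.88 (SE 0.21, adjusted p 0.000304) in TET iTKO. Normalised counts went from 216.4 and 167.7 to 257.8 and 268.9 in WT of the Tet cohort and from 223.4 and 212.0 to 342.4 and 458.5 in TET iTKO. Thus Batf was called in all 4 comparisons, Jdp2 in 2 and Fos in 1, the last as a fall. Of all genes 8.6%, 7.08%, 24.1% and 24.4% were called, in the order given for Jdp2. The Jdp2 response was not called as different between genotypes (TET iTKO minus WT 0.41, SE 0.3, and TDG iKO minus WT -0.28, SE 0.46). The edgeR adjusted p of Jdp2 was 0.0521 in WT of the Tdg cohort and 0.00326 in TET iTKO. Jdp2 in Th2 cells had 148.7 to 261.6 normalised counts and was not called against either BMDM cohort (DESeq2 log2 difference 0.10 and 0.18, adjusted p 0.838 and 0.696).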
